A study of Mus musculus with 11 samples.

Results

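Relative to the other autosomes, mouse chromosome 15 had few Xist-enriched regions per Mb in early epiblast-like cells and many in female fibroblasts. In absolute number each list of early cells held more of them than the female fibroblast list. The regions described here are all peaks on chromosome 15 in the 6 deposited lists, on the genome build mm9, except those overlapping 101150000 to 101880000 or 102500000 to 103120000, which were left out. They number 594 of 19818 autosomal peaks, and 99 peaks in the 2 left-out windows are not counted among them. The chromosome was chosen for its peak density relative to the other autosomes, low at day 2 and high in fibroblasts. Densities and peak counts are therefore given as a description with no test. The 2 blocks near 74 and 78 Mb were likewise picked from the values.

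Xist is the long noncoding RNA that spreads along an X chromosome of female mammalian cells in cis and recruits silencing factors, among them Polycomb complexes. It reaches the X by proximity in the nucleus. RNA antisense purification (RAP-seq) captures the RNA with antisense probes and sequences the DNA crosslinked near it, so a peak marks DNA recovered with Xist more often than background, not a binding motif.

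The pulldowns came from female epiblast-like cells (EpiLCs, stem cells grown in 2i and LIF and then given bFGF with Activin A), taken on day 2 (D2) or day 4 (D4) with n = 2 each, and from mouse embryonic fibroblasts (MEFs) of either sex with n = 1 each. The labels state that the replicate 1 EpiLC libraries re-analyse earlier data, so the replicate number also separates data sets, and they do not say whether replicates were separate cultures. No strain, allele or clone is named in the labels, and no further agent was applied to any group. Male cells have a single X and normally make no Xist, so the male list serves as pulldown background for fibroblasts. No male EpiLC library was analysed here. The lists hold regions and no RNA levels, so cell identity could not be checked against marker genes, and read depth is unknown for all 6 libraries. Deeper libraries give more peaks, and MEF values lack replicates.

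Fewer regions were called on chromosome 15 at day 4 than at day 2, while the female MEF list held more than either D4 list. There were 168 and 167 members at day 2, 86 and 64 at day 4, 92 in female fibroblasts and 17 in male fibroblasts, and pairs of values are given here and hereafter with replicate 1 first. The D2 mean of 167.5 ± 0.707 was 2.23 times the D4 mean of 75 ± 15.6 (SD, n = 2 each), and the libraries of the 2 days did not overlap. Within replicate number the ratio was 1.95 for replicate 1 and 2.61 for replicate 2. The whole lists held 8227 and 7544 peaks at day 2 against 1553 and 1148 at day 4. The order of the days depended on the peaks considered: members with a fold enrichment of at least 3 numbered 10 and 22 at day 2 against 16 and 7 at day 4, which overlap, and with each list reduced to the 326 peaks of highest −log10 p, members numbered 11 and 6 at day 2 against 24 and 13 at day 4. The length under members was 1538 and 1275 kb at day 2, 325 and 188 kb at day 4, 1691 kb in female fibroblasts and 22 kb in male fibroblasts. The day 2 mean was 5.48 times the day 4 mean (4.73 within replicate 1 and 6.79 within replicate 2). Female MEFs thus had the largest called length of the 6 lists with 92 peaks, against 168 peaks in D2 replicate 1.

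Set against the other 18 autosomes, chromosome 15 moved from the bottom of the order at day 2 to near the top in female fibroblasts. Density here is members per Mb over the 93.3 Mb from the earliest to the latest peak over all lists, without the left-out windows. At D2 it was 1.80 and 1.79 per Mb, against 3.61 and 3.30 on the other autosomes, and only chromosome 3 (1.70 and 1.36) was sparser. At D4 it was 0.922 and 0.686, against 0.647 and 0.477, and chromosome 15 had ranks 7 and 6 of 19, counted from the densest. In female MEFs it was 0.987 against 0.411, and only chromosome 4 (1.46) was denser. In male MEFs it was 0.182 against 0.138, rank 4, with 17 members. As a ratio to the other autosomes this was 0.499 and 0.542 at day 2, 1.42 and 1.44 at day 4, 2.40 in female fibroblasts and 1.32 in male fibroblasts. By length the excess in female fibroblasts was larger than by number, since members covered 1.81% of the chromosome there and peaks covered 0.536% of the other autosomes. At D2 the covered shares were 1.65% and 1.37%, against 3.35% and 2.40%, and at day 4 they were 0.349% and 0.201%, against 0.335% and 0.233%.

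**Figure D1:**
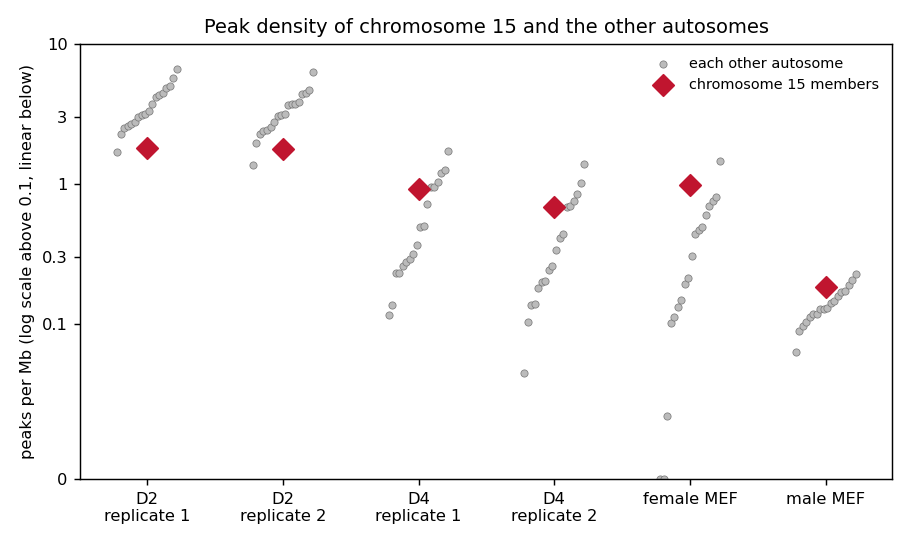
Peaks per Mb (vertical axis, logarithmic above 0.1 and linear below) in each of the 6 lists; diamonds are the chromosome 15 members and grey points the other 18 autosomes, ordered by density within a list. The diamond lies second from the bottom in both D2 lists (1.80 and 1.79) and second from the top in female MEFs (0.987).

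Members were long in female fibroblasts and short in male fibroblasts, and of modest enrichment everywhere. Members had a median length of 3166 and 3292 bp at day 2, 3012 and 2278 bp at day 4, 6928 bp in female fibroblasts and 589 bp in male fibroblasts. The D2 and D4 medians differed by 584 bp, close to the spread of the D4 libraries (SD 519 bp, n = 2), and the two-sided exact permutation test gave p = 0.333, the smallest that 2 libraries against 2 allow. Median fold enrichment, the authors' own ratio over the peak caller's background, was 2.60 and 2.79 at day 2, 2.84 and 2.85 at day 4, 2.92 in female fibroblasts and 2.92 in male fibroblasts. The D2 minus D4 difference was -0.152, against an SD of 0.134 between D2 libraries (exact permutation p = 0.333, again the smallest possible). On the other autosomes median length was 3938 and 3562 bp at day 2, 2843 and 2779 bp at day 4, 5359 bp in female fibroblasts and 1025 bp in male fibroblasts, and fold enrichment was 2.61 and 2.80, 2.82 and 2.85, 2.90 and 2.91 in the same order of lists. Fold enrichment on chromosome 15 was thus close to that of the other autosomes in each list, while D2 replicate 1 had the shortest median length of all 19 autosomes and D2 replicate 2 had rank 14. Peaks of 100 kb or more numbered 1 in each D2 list, 0 at day 4, 4 in female fibroblasts and 0 in male fibroblasts.

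Most members lay just past the calling threshold. Only 25 of 168 and 15 of 167 D2 members, 11 of 86 and 2 of 64 D4 members, 6 of 92 in female fibroblasts and 3 of 17 in male fibroblasts had a −log10 q of at least 2. At a −log10 q of at least 3 the counts were 5 and 3 at day 2, 2 and 1 at day 4, 0 in female fibroblasts and 2 in male fibroblasts. Low values were not particular to chromosome 15 at day 2. There the density ratio to the other autosomes was 0.521 for all peaks and 0.514 at a −log10 q of at least 2. The same step lowered the day 4 ratio from 1.43 to 1.18. It raised the ratio of female fibroblasts from 2.40 to 3.12 and that of male fibroblasts from 1.32 to 1.49, on 6 and 3 members.

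The 3 strongest members of each D2 list and the first-ranked member of each D4 list lay at 3 sites. None of these sites was called in either MEF list. In D4 replicate 1 the members ranked 2 to 4 (3.63, 3.40 and 3.36) each overlapped a female MEF peak. The highest D2 values belonged to a site at 44256791 to 44259952 (bounds of replicate 1), with fold enrichments of 4.86 and 4.55 in the D2 lists and no peak in either D4 list. A site of 314 bp at 62050012 to 62050325 had 4.73 and 3.59 at day 2 and 3.87 in D4 replicate 1, where it ranked first, and was not called in D4 replicate 2. A site at 72918508 to 72922511 was called in all 4 EpiLC lists, with 3.73 and 3.71 at day 2 and 3.24 and 4.01 at day 4, and ranked first in D4 replicate 2. The remaining leading D2 members were called in 1 list each, at 77188475 to 77189118 (3.38) and 94373653 to 94374459 (3.25) in replicate 1 and at 37475764 to 37476511 (3.58) in replicate 2, except 73014336 to 73017593, which had 3.23 in D2 replicate 2 and 2.77 to 2.90 in the other 3 EpiLC lists.

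Nearly all D4 members lay in the distal part of the chromosome that holds the female MEF members. The span from 71 to 89 Mb was set from the first and last female MEF members, so it holds all 92 of them by construction. It is 18 Mb or 19.3% of the chromosome considered. Of the D4 members, 83 of 86 (96.5%) and 61 of 64 (95.3%) lay in it, with 3 and 2 before it and 0 and 1 after it. At D2 the span held 114 of 168 (67.9%) and 119 of 167 (71.3%), with 30 and 22 members before it and 24 and 26 after it. The male MEF members were spread more evenly, with 6 before, 10 within and 1 after. Among the EpiLC libraries, members outside the distal span were thus mostly those of the D2 lists. The 2 left-out windows lie beyond this span, and their peaks are not counted in these shares. They held 19 and 19 peaks at day 2, 25 and 22 at day 4, 12 in female fibroblasts and 2 in male fibroblasts. With them counted, the shares within the span would be lower, and the D4 lists would have more peaks after it.

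Members were concentrated in few 1 Mb bins, and fewer bins held 50% of them at day 4 and in female fibroblasts than at day 2. At least 50% of the members fell in 6 and 5 bins at day 2, 3 and 3 at day 4, 3 in female fibroblasts and 4 in male fibroblasts. The 5 fullest bins held 47.6% and 51.5% at day 2, 74.4% and 71.9% at day 4, 76.1% in female fibroblasts and 58.8% of the 17 male members. Members occupied 38 and 32 bins at day 2, 15 and 13 at day 4, 11 in female fibroblasts and 12 in male fibroblasts. The fullest bin differed between lists: it began at 77 Mb in D2 replicate 1 (21 members), at 74 Mb in D2 replicate 2 (23), D4 replicate 1 (19) and D4 replicate 2 (15), at 87 Mb in female fibroblasts (23) and at 78 Mb in male fibroblasts (4). On the other autosomes the median number of bins for 50% of peaks was 9 in both D2 lists, 3.5 in both D4 lists, 2 in female fibroblasts and 7 in male fibroblasts. In female fibroblasts 11 of the 16 other autosomes with peaks needed fewer bins than chromosome 15. Of 18 other autosomes this held for 1 and 0 at day 2, 2 and 4 at day 4 and 1 in male fibroblasts. Lists and autosomes with fewer peaks can need fewer bins, so neither the lists nor the autosomes are directly comparable.

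**Figure D2:**
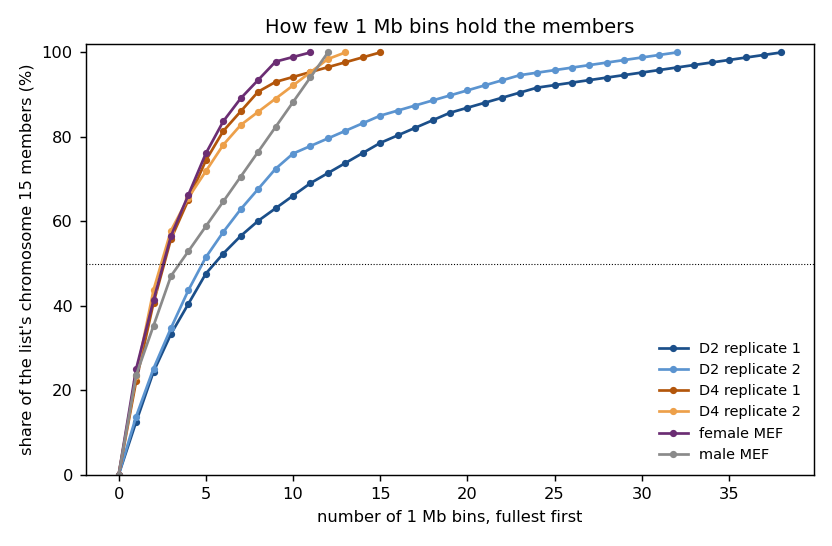
Cumulative share of each list's chromosome 15 members (vertical axis, %) against the number of 1 Mb bins, taken from the fullest down; the dotted line marks 50%. The D4 and female MEF curves cross it at 3 bins and the D2 curves at 6 and 5.

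Joined over all 6 lists, with gaps of at most 100 kb, the members formed 67 stretches, and 5 of them held 383 of 594 members (64.5%). These 5 stretches held 49.4% and 56.9% of D2 members, 84.9% and 81.3% of D4 members, 78.3% of female MEF members and 8 of 17 male members. They held 77.3% and 80.4% of the called length at day 2, 89.6% and 78.6% at day 4 and 94.1% in female fibroblasts. Each of the 5 was filled by a different mix of lists.

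**Figure D3:**
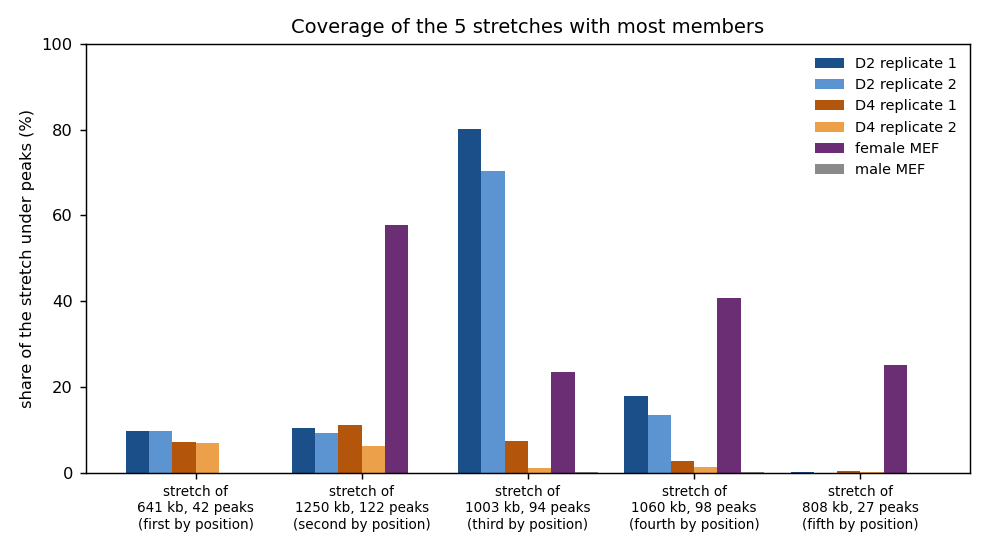
Share of each of the 5 stretches lying under peaks (vertical axis, %), by list, with the stretches in order along the chromosome. The stretch around 78 Mb is covered mostly at D2 (80.3% and 70.3%), those around 74, 84 and 88 Mb mostly in female MEFs (57.7%, 40.6% and 25.2%), and the one below 73.5 Mb by no female MEF peak.

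The stretch with most members, 122, ran from 73502397 to 74752453 (1250 kb) and holds most of the block near 74 Mb. It was covered far more in female fibroblasts than in EpiLCs. Female MEF members covered 722 kb of it in 11 peaks, D2 members 130 and 116 kb in 26 and 31 peaks, D4 members 138 and 77.1 kb in 31 and 23 peaks, and male MEF members 0 kb. In female MEFs the peaks followed each other closely. Those in or reaching into the block were 73927822 to 74191071 (263 kb, fold enrichment 3.11), 74198889 to 74338730 (140 kb, 3.06), 73849551 to 73923439 (73.9 kb, 3.04) 74344351 to 74412136 (67.8 kb, 2.96) and a short last one ending at 74417911. A further female MEF peak of 89.2 kb lay before the block. In EpiLCs the peaks were scattered over the same ground, with a longest of 18.3 and 9.79 kb at day 2 and 25.8 and 12.1 kb at day 4, and all 4 EpiLC lists went on beyond the female MEF end, to between 74724252 and 74752453. Of the EpiLC members here, 14 of 26 and 19 of 31 at day 2 and 29 of 31 and 21 of 23 at day 4 overlapped a female MEF peak. Over all autosomes 5.26% and 6.02% of D2 peaks and 19.6% and 21.5% of D4 peaks did. Female MEF peaks covered 57.7% of this stretch, so an overlap is easily met here.

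Within 73900000 to 75000000, the bounds of the block itself, the lists held 16 and 24 members at day 2, 21 and 16 at day 4, 5 in female fibroblasts and 0 in male fibroblasts. They covered 8.00% and 8.42% of it at day 2, 9.29% and 5.08% at day 4 and 45.1% in female fibroblasts. The D4 members here had fold enrichments of 2.66 to 3.63 in replicate 1 and 2.73 to 3.05 in replicate 2, and the longest were 74147210 to 74172985 (25.8 kb), 74265289 to 74282528 (17.2 kb) and 73943538 to 73956190 (12.7 kb) in replicate 1 and 74046531 to 74058622 (12.1 kb) and 74278618 to 74287016 (8.40 kb) in replicate 2. A site of 202 bp at 74322060 to 74322261 had 3.63 in D4 replicate 1 and lay inside a female MEF peak, without a peak in the other EpiLC lists. The next strongest of that list were 74021068 to 74025126 (3.40) and, just before the block, 73730024 to 73736793 (3.36), both overlapping a female MEF peak. The block therefore held 24.4% and 25.0% of D4 members against 9.52% and 14.4% of D2 members, a share higher in both D4 than in both D2 libraries. As background from general knowledge of the mouse map, and not from an annotation of mm9, this part of chromosome 15 holds Adgrb1, a brain adhesion receptor also called Bai1, Arc, an activity-induced neuronal gene, and the Ly6 genes of small surface proteins. In the GRCm38 gene table Adgrb1 and Gpihbp1, the carrier of lipoprotein lipase, bound a run of 33 protein-coding genes that includes Arc, Cyp11b1, Cyp11b2 and the Ly6 genes. Which gene lies under which peak was not determined, and the female MEF peaks end at 74417911, before the end of the block at 75000000.

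The stretch around 78 Mb, from 77692986 to 78696014 (1003 kb, 94 members), was the one covered most at day 2. D2 members covered 805 and 705 kb of it in 16 and 26 peaks, D4 members 75.2 and 10.7 kb in 21 and 8 peaks, female MEF members 235 kb in 18 peaks and male MEF members 1.15 kb in 5 peaks. Its share of the length called on the chromosome was 52.4% and 55.3% at day 2, against 23.1% and 5.71% at day 4 and 13.9% in female fibroblasts. D2 replicate 1 had a single peak of 485 kb at 78066184 to 78551477 (fold enrichment 2.74), its longest, and D2 replicate 2 had a row of shorter ones over the same ground, the longest at 78145828 to 78248726 (103 kb, 2.98) and 78266886 to 78342620 (75.7 kb, 2.96). Peak number therefore says less about this stretch than covered length.

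Female MEFs had their strongest chromosome 15 members in this stretch, at 78024953 to 78025243 (3.63), 78038079 to 78040960 (3.43) and, at rank 5, 78229145 to 78233243 (3.26). The D2 lists covered the first of these with broader peaks of 2.71 and 2.94, and neither D4 list called it. The second overlapped a peak of both D4 lists (3.13 and 2.87), and the third overlapped a peak of neither. All 18 female MEF members here overlapped a D2 member and 8 overlapped a D4 member. Over all autosomes 45.4% of female MEF peaks overlapped a D2 peak and 23.9% a D4 peak. D2 members covered 80.3% and 70.3% of this stretch, so an overlap with D2 is easily met here. The longest female MEF members were 77850723 to 77929953 (79.2 kb), 77969836 to 77999603 (29.8 kb) and 78491513 to 78511685 (20.2 kb), and those of D4 replicate 1 were 78174684 to 78192305 (17.6 kb) and 78029833 to 78035264 (5.43 kb). D4 replicate 2 held none above 3.61 kb. Among D4 members the strongest was 78166386 to 78169911 in replicate 1 (3.30), inside the long D2 peaks and not called in D4 replicate 2 or in female fibroblasts.

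Within the 1 Mb centred on 78 Mb the D2 lists covered 67.5% and 60.4%, the D4 lists 6.99% and 1.07%, female MEFs 21.5% and male MEFs 0.0873%. The lists held 12 and 19 members there at day 2, 19 and 8 at day 4, 17 in female fibroblasts and 4 in male fibroblasts. As shares of members these were 7.14% and 11.4% at day 2 and 22.1% and 12.5% at day 4. The share was 18.5% in female fibroblasts and 23.5% in male fibroblasts, so the male list also gathered there by number. The male peaks were 181 to 278 bp long, and the strongest, at 78420744 to 78420960 (3.85), lay inside peaks of both D2 lists and in none of the D4 and female MEF lists. As background, not from an annotation of mm9, this part of the chromosome holds Ncf4, a subunit of the phagocyte oxidase, Csf2rb and Il2rb, receptor chains for blood cytokines, and Cacng2, a brain calcium channel and glutamate receptor auxiliary subunit. The GRCm38 gene list has 15 protein-coding genes from Cacng2 to Rac2, a blood cell GTPase.

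**Figure D4:**
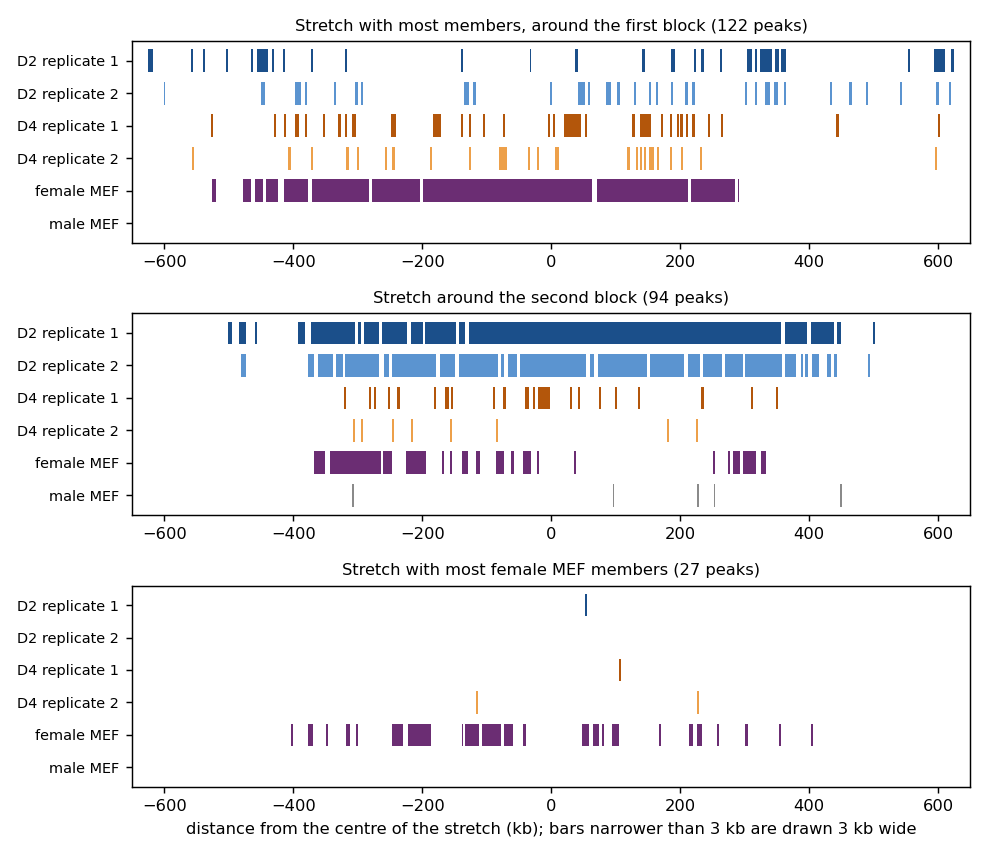
Peaks of the 6 lists (rows) in 3 stretches, as bars along the distance in kb from the centre of each stretch. Female MEFs fill much of the upper stretch (722 kb) where EpiLC peaks are scattered, D2 lists fill the middle one (805 and 705 kb), and the lower one holds 23 female MEF peaks and 4 from the EpiLC lists.

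The stretch from 83425196 to 84485627 (1060 kb, 98 members) was called in all 6 lists and held fewer members at day 4 than at day 2. It held 31 and 29 members at day 2 (189 and 142 kb), 11 and 5 at day 4 (29.1 and 14 kb), 20 in female fibroblasts (431 kb) and 2 in male fibroblasts. The longest female MEF peak there was 83619208 to 83756165 (137 kb, 3.06). Strong female MEF members were 83498685 to 83499602 (3.41), also covered in D2 replicate 1 (2.56), and 83877553 to 83880482 (3.29), called in no other list. Of the D4 members, 9 of 11 and 5 of 5 overlapped a female MEF peak, and at day 2 14 of 31 and 11 of 29 did. Over all autosomes the shares were 19.6% and 21.5% at D4 and 5.26% and 6.02% at D2. Female MEF peaks covered 40.6% of this stretch. As background, Scube1, a secreted growth factor coreceptor, and Parvb and Parvg, adaptors of integrin adhesions, lie in this part of the chromosome, 9 protein-coding genes from Scube1 to Parvg in the GRCm38 table.

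The stretch from 72377495 to 73018455 (641 kb, 42 members) was an EpiLC one. It held 9 and 9 members at day 2 (61.8 kb in each), 9 and 14 at day 4 (45.6 and 43.7 kb), 0 in female fibroblasts and 1 of 211 bp in male fibroblasts. The D4 shares of all length called on the chromosome were 14% and 23.3% against 4.02% and 4.85% at day 2. All 3 segments under members of all 4 EpiLC lists lay in it (with the left-out peaks added back the chromosome had 19), at 72885966 to 72898527 (12562 bp, fold enrichments 3.13 and 3.21 at day 2 and 2.96 and 3.10 at day 4), 72920812 to 72921193 (part of the strong site above) and 73015681 to 73017129 (2.90 and 3.23 at day 2, 2.77 and 2.86 at day 4). D4 replicate 2 drew 4 of its 5 strongest members from it, which besides 72919274 to 72921193 (4.01) were 72870703 to 72872206 (3.10), 72885966 to 72898527 (3.10) and 72602051 to 72603593 (3.10). As background, this part of the chromosome holds Trappc9, a subunit of a vesicle tethering complex, Kcnk9, an imprinted potassium channel gene, and Ago2, the slicer of RNA interference. The GRCm38 table lists 5 protein-coding genes from Kcnk9 to Ago2.

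Female MEFs had a further set of members near 87 Mb with little counterpart in EpiLCs. The stretch from 87230801 to 88039258 (808 kb, 27 members) held 23 female MEF members over 204 kb, against 1 and 0 at day 2, 1 and 2 at day 4 and 0 in male fibroblasts. The longest female MEF member in it was 35.5 kb, and the highest fold enrichment was 3.24. Of the 23, 1 overlapped a D2 member, 3 a D4 member and 4 any EpiLC member. Over all autosomes 45.4% of female MEF peaks overlapped a D2 peak and 23.9% a D4 peak. Nearby, the stretch from 86168040 to 86787192 held 9 female MEF members (54.2 kb), 0 and 0 at day 2 and 4 and 2 at day 4, and none of the 9 overlapped an EpiLC member. Near these stretches D4 replicate 2 had its second strongest member, 87104292 to 87108289 (3.13), which no other list called. One of its longest, 85791355 to 85802699 (11.3 kb, 2.87), overlapped a female MEF peak of 3.06. As background, Tafa5, a secreted chemokine-like protein gene, lies in this part of the chromosome, and in the GRCm38 table it is the only protein-coding neighbour between Tbc1d22a and Zdhhc25.

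A larger share of D4 than of D2 members overlapped female MEF peaks, while the D2 lists had more length in common with female MEFs. Overlap means at least 1 bp. Of the D4 members, 48 of 86 (55.8%) in replicate 1 and 36 of 64 (56.3%) in replicate 2 overlapped a female MEF peak, where 19.6% and 21.5% of all autosomal D4 peaks did. Of the D2 members, 37 of 168 (22%) and 43 of 167 (25.7%) did, where 5.26% and 6.02% of all autosomal D2 peaks did. The shares of both D4 libraries lay above those of both D2 libraries. For D4 the chromosome 15 share was higher than on any of the other 18 autosomes, which reached 47.0% and 51.5%, and for D2 only 1 autosome was higher in each list (23.3% and 27.5%). These shares move with how much of a chromosome the female MEF list covers, which is 1.81% here and 0.536% on the other autosomes, and no test of the difference between chromosomes was made. Most members of these lists had a −log10 q below 2. Where −log10 q had to reach 2 in both lists, 9.09% of 11 D4 replicate 1 members and 0% of 2 D4 replicate 2 members overlapped a female MEF member. This setting also left only 6 female MEF members and removed the longest ones (263 kb at 1.83 and 140 kb at 1.76). The D4 lists were not filtered alone, so the drop cannot be assigned to either list. Without the 2 blocks, which were picked from the values, the shares were 41.3% and 32.5%. That is below the 47.0% and 51.5% of chromosome 4, so the top rank depends on the blocks.

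**Figure D5:**
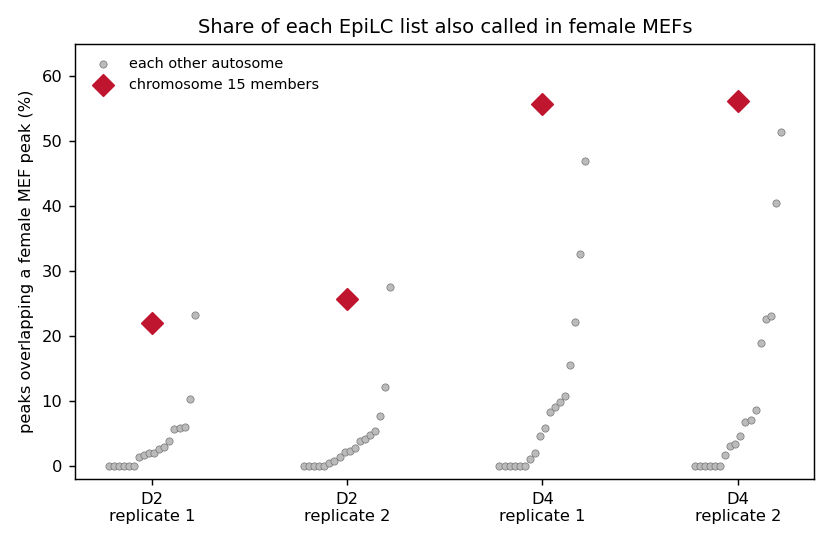
Percent of peaks of each EpiLC list that overlap a female MEF peak (vertical axis); diamonds are chromosome 15 members and grey points the other 18 autosomes. The diamonds lie at 55.8% and 56.3% at D4, above each grey point, and at 22% and 25.7% at D2.

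Seen from the fibroblast side, the sharing was less. Of the 92 female MEF members, 21 (22.8%) overlapped D4 replicate 1 and 17 (18.5%) D4 replicate 2, where 19.3% and 15.7% of all female MEF peaks did. For either D4 list the count was 26 (28.3%, against 23.9% of all), and for either D2 list 39 (42.4%, against 45.4% of all). Female MEF members were thus shared with EpiLCs at rates near those of the whole list. By length, D4 replicates 1 and 2 shared 170 and 95.3 kb with female MEFs, which is 52.3% and 50.8% of their own called length and 10.1% and 5.64% of that of female MEFs. D2 replicates 1 and 2 shared 325 and 330.5 kb, which is 21.2% and 25.9% of their own called length and 19.2% and 19.5% of that of female MEFs.

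Shared female MEF members were longer than unshared ones. The 18 members that overlapped both a D2 and a D4 member had a median length of 33701 bp and held 1080 kb, the 21 shared with D2 alone 8064 bp and 199 kb, the 8 shared with D4 alone 6896 bp and 130 kb, and the 45 shared with neither 4203 bp and 282 kb. A longer peak meets another list more easily, so this order was not tested. Median fold enrichments were alike, at 2.98, 2.94, 2.93 and 2.88 in the same order. Of the 45 unshared members, 36 lay beyond 86 Mb.

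D4 and D2 shared unevenly on this chromosome. Of D4 replicate 1 members, 53 of 86 (61.6%) overlapped a member of either D2 list, where 73% of all its peaks did. Of D4 replicate 2 members, 19 of 64 (29.7%) did, where 68.3% of all its peaks did, and each of the other 18 autosomes had a higher share in that list. In replicate 1, 13 of the other 18 had a higher share. The 2 D4 libraries thus differed by more here than over all autosomes.

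Replicates of a day shared a smaller part of their members here than of all their peaks. Of D2 replicate 1 members, 67 of 168 (39.9%, against 45.3% of all its peaks) overlapped replicate 2, and of replicate 2 members 82 of 167 (49.1%, against 59.3%) overlapped replicate 1. These shares were lower than on each of the other 18 autosomes in both lists. At D4 the counts were 13 of 86 (15.1%, against 22.2%) and 15 of 64 (23.4%, against 32.6%), and 9 and 10 of the other 18 autosomes had a higher share. Segments called in both replicates numbered 90 over 883 kb at day 2 and 15 over 37.3 kb at day 4.

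No base of chromosome 15 lay under members of all 5 female lists, although 3 of the stretches held members of each. With the left-out peaks added back there were 12 such segments (79.3 kb). In both D4 lists and female MEFs there were 10 segments over 21.6 kb, of which 9 lay between 73879902 and 74330084, in the stretch around the block near 74 Mb, and 1 at 83818206 to 83819036. The longest was 73879902 to 73885730 (5829 bp, fold enrichments 2.95 and 2.87 at day 4 and 3.04 in female fibroblasts). Of the 10, 8 met no D2 peak, and the other 2, at 74270494 to 74273635 and 74278618 to 74282528, met a peak of 1 D2 list each. In both D2 lists and female MEFs there were 36 segments over 217 kb.

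Few male MEF members overlapped a female MEF peak, though their share was above that of all male peaks. Of the 17, 3 (17.6%, against 5.52% of all male peaks) overlapped a female MEF peak and 6 (35.3%, against 42% of all) overlapped any EpiLC peak. Of the 92 female MEF members, 3 (3.26%, against 1.67% of all) overlapped a male peak. The strongest male member, 34377663 to 34380721 (5.58), the long ones at 49544265 to 49547868 and 34989148 to 34992725 and those at 21929021 to 21931653 and 48444549 to 48445137 (2.90 to 2.92) were called in no female list. Shared length between the 2 MEF lists was 0.591 kb. The lowest −log10 q was 1.54 among male members and 1.30 to 1.31 among female ones, so weaker background could be missed in males.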

How the data were processed

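The 6 peak lists of Xist pulldowns were used, each from a single library; the 5 input samples were not analysed here. The submitters' processing notes name the build mm9 and MACS2 2.2.7.1, bedtools 2.26.0, Picard, SAMtools 1.9, Bowtie2 2.2.9 and Trim Galore 0.4.1, without settings. The input behind each list was not given in the sources used here. For each peak the authors deposited a fold enrichment, which is a ratio to background on a linear scale. The −log10 p-value and −log10 q-value deposited for a peak are likewise those of the authors. Without read counts, depth is unknown and intervals for counting error cannot be computed. Coordinates are on mm9, counted from 1.

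Members were counted, merged and overlapped in Python 3.11.15 with pandas 2.3.3 and numpy 2.4.6, by functions tested on simulated intervals. Bins of 1 Mb hold peaks by midpoint. Stretches join peaks of all lists with gaps of at most 100 kb. Library medians of D2 and D4 were compared with a two-sided exact permutation test; the labels do not say that replicates came from separate cultures, so p-values measure only the spread between these samples. Regions named are, per list, the 5 members of highest fold enrichment and the 3 longest, the longest in the 2 blocks, the 5 stretches with most members and segments shared by lists; others were chosen after their values were seen. Members, lists and windows were chosen with earlier results of these data known. The 4 hand-written gene lists were not tested, because the gene table used here is of GRCm38 (28 of 29, 24 of 24, 24 of 25 and 20 of 20 genes matched on chromosome 15), and it served only for names and gene order.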

Additional observations from a re-analysis of the deposited data

How the results depend on the processing

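Over 40 results and 137 alternative values, 71 were counted as kept, 65 as moved and 1 as reversed. The rule for kept differed between results. Counts and concentration had to lie in a fixed fold band, and D2 and D4 densities and their peak ratio within the SD of 2 replicates. Sharing, block shares and MEF densities had to lie in a 95% binomial interval that treats peaks as independent. Peaks of 1 library cluster and are not replicates, so the tally does not measure robustness. For the D2 against D4 differences in length and fold enrichment, kept means only the same sign, and their size was not judged. Stricter thresholds left few members: at a −log10 q of at least 2, 25 and 15 at day 2, 11 and 2 at day 4, 6 in female fibroblasts and 3 in male fibroblasts; at 3 or more, 5, 3, 2, 1, 0 and 2; at a fold enrichment of at least 3, 10, 22, 16, 7, 27 and 3. The D2 over D4 ratio of peaks was 1.95 to 2.62 without 1 replicate, 3.08 at a −log10 q of at least 2 and 1.39 at a fold enrichment of at least 3. The density ratio to the other autosomes at day 2 was 0.604 at that fold enrichment, 0.642 with lists reduced to 326 peaks and 0.572 with the left-out windows added back. At D4 it was 1.18 at a −log10 q of at least 2, then 1.32, 1.47 and 1.86 under the same 3 settings. In female MEFs it was 3.12 at a −log10 q of at least 2 and 3.00 at a fold enrichment of at least 3. The median length difference reversed to -1928 bp (D2 shorter) at a −log10 q of at least 2 and was 2573 bp at 3 or more, where few members were left.

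The labels tie replicate 1 to earlier data, but do not say that a number marks a shared culture. With the replicate block the ratio of peaks was 2.258 and the differences in length and fold enrichment were 584 bp and -0.152 (exact sign-flip p = 0.5, the smallest 2 pairs allow). Replicate differences at day 2 and day 4 over 47 bins had r = -0.46, which does not show that equal numbers belong together; crossing the pairs gives the same means by construction. Without 1 replicate the differences were 217 to 951 bp and -0.246 to -0.0568.

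Sharing with female MEFs at a −log10 q of at least 2 in both lists fell to 9.09% and 0% for D4 replicates 1 and 2, and to 16.7% for female MEFs in either D4 list. Without the 2 blocks it was 41.3% and 32.5%. Within 10 kb the female MEF share was 39.1%, and leaving out D4 replicate 1 or 2 gave 18.5% or 22.8%. Stretches holding at least 50% of members numbered 12, 9, 7, 7 and 5 in the D2, D4 and female MEF lists at a gap of 50 kb (7, 5, 2, 4 and 3 at 100 kb), and 4, 3 and 2 in the D2 lists and D4 replicate 2 at 200 kb. At a −log10 q of at least 2 they numbered 1 in D4 replicate 2 and 2 in male fibroblasts. With bins of 2 Mb the span holding 50% was 10 Mb in both D2 lists, 6 Mb in D4 replicate 1 and 8 Mb in male fibroblasts, and with bins of 500 kb it was 1.5 Mb in both D4 lists. By length, the first block held 7.26% in D2 replicate 2 and 29.3% in female fibroblasts, and the second 43.9% and 47.4% at day 2 and 3.97% in male fibroblasts. At a −log10 q of at least 2 the first block held 0% in both D2 lists, D4 replicate 2 and female MEFs and 36.4% in D4 replicate 1, and the second 6.67% in D2 replicate 2, 0% in D4 replicate 2 and 50% in female fibroblasts. The gene window alternative was not run. Unknown depth limits every count of peaks, and each MEF value rests on 1 library.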
